A study of Mus musculus with 6 samples.

Results

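The genes described here are 10 mouse genes of the Nogo and proteoglycan inhibition pathways of axons. They were chosen by symbol, and each was matched to its Ensembl identifier in the deposited tables. They are the ligand genes *Rtn4* and *Omg*, the Nogo receptor genes *Rtn4r*, *Rtn4rl1* and *Rtn4rl2*, the co-receptor genes *Lingo1* and *Tnfrsf19*, and the receptor tyrosine phosphatase genes *Ptprs*, *Ptprf* and *Ptprd*, out of 43346 Ensembl genes in the tables. RNA was sequenced from purified mouse retinal ganglion cells (RGCs, the neurons that send axons through the optic nerve) in culture. The control cells (CONTROL) received an adeno-associated virus (AAV) carrying EGFP alone. The Sox11 cells (SOX11_WT) received an AAV carrying Sox11, a transcription factor of immature neurons, together with EGFP, and the Sox11 K91A cells (SOX11_MUTANT) received the same vector with alanine in place of the lysine that carries the SUMO modification. With 2 replicates in each group there were 6 libraries, and nothing says that replicates were separate cultures. The protocol speaks of 3 RNA samples in duplicates and does not say whether replicates share RNA. In the control and Sox11 groups the replicates differed in counts of sex-linked genes, which are given below. With the origin of replicates unstated, the p-values measure only the spread between these libraries. All cells were grown with forskolin, BDNF and CNTF, received virus 4 h after plating and gave RNA 72 h after plating. The sources give the age of the cells as E18, P2 or P0 in different places. The values describe purified neurons in a dish and not the optic nerve, where other cells make most of the inhibitory ligands.

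Nogo, encoded by *Rtn4*, and OMgp, encoded by *Omg*, are proteins of myelin that stop growing axons. They bind the Nogo receptor, a lipid-anchored protein without a cytoplasmic part, which signals through the co-receptor Lingo1 together with p75 (*Ngfr*) or Troy (*Tnfrsf19*) to RhoA and ROCK. Chondroitin sulfate proteoglycans of scar tissue act through the phosphatases PTPσ (*Ptprs*) and LAR (*Ptprf*), whose close relative PTPδ (*Ptprd*) is best known for organizing synapses.

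The expected counts summed to between 27521981 and 37061718 per library. *Sox11* was at 234 and 332 CPM (counts scaled to the size of the library) in the control libraries, between 9178 and 14591 CPM in the Sox11 libraries and between 7026 and 11971 CPM in the Sox11 K91A libraries, in the direction of the labels. The 10 RGC markers examined summed to 11444 and 10605 CPM in the controls, 7967 and 5334 CPM in the Sox11 libraries, and 6762 and 8378 CPM in the Sox11 K91A libraries. Of the 10, *Nefl*, *Slc17a6* and *Thy1*, the antigen by which the cells had been purified, fell with Sox11 and the other 7 did not pass the test. *Nefl* alone made up 7086 and 6345 CPM of the control sums. *Tubb3* was at 1141 and 1060 CPM in the controls and 1408 and 1336 CPM with Sox11, and *Isl1* at 260 and 270 CPM and at 282 and 268 CPM. Markers of oligodendrocytes summed to between 63.3 and 77.2 CPM in every library, with *Olig2* at 0 counts and *Sox10* at no more than 3 counts. In that list *Mog*, at 2.58 and 1.66 CPM in the controls and 6.15 and 10.6 CPM with Sox11, and *Pdgfra*, below 1 CPM throughout, rose with Sox11. Those of astrocytes and Müller glia summed to 110 and 106 CPM in the controls and to between 272 and 317 CPM in the other 4 libraries, mostly from *Glul*, with *Gfap* at 0 counts. Markers of microglia stayed at or below 1.37 CPM, those of endothelial cells and pericytes at or below 3.8 CPM and those of bipolar cells and photoreceptors at or below 2.62 CPM. Those of amacrine cells summed to between 365 and 622 CPM, mostly from *Pax6* at between 291 and 405 CPM. Those of dividing progenitors summed to between 3.53 and 13.9 CPM. Of the amacrine markers *Slc6a9* fell with Sox11, from 27.6 and 17.5 CPM in the controls to 6.92 and 3.62 CPM. Control replicate 2 and Sox11 replicate 2 stood apart from the other 4 libraries, with 3697 and 8413 *Xist* counts against 11191 or more, and with 2.83 and 2.23 CPM of the amacrine gene *Gad1* against 17.2 or more. Counts of the Y-linked genes *Ddx3y*, *Eif2s3y*, *Kdm5d* and *Uty* summed to 3016 and 3298 in these 2 libraries and to between 1094 and 1537 in the other 4. The results that rest on these 2 libraries are given below with and without them.

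A pair of promoters is shown because *Rtn4r* and *Tnfrsf19* moved in opposite directions with Sox11 and have an entry in the promoter table used here. Each sequence holds the 250 bases before a transcript start from RefSeq on GRCm38.p6, for *Rtn4r* at chr16:18127392-18127641 on the plus strand and for *Tnfrsf19* at chr14:61046856-61047105 on the minus strand.
Rtn4r: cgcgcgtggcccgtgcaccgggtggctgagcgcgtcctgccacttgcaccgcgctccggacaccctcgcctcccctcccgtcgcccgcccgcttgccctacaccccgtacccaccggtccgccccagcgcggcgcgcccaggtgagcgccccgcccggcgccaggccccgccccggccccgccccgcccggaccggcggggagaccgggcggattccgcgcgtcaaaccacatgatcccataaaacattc
Tnfrsf19: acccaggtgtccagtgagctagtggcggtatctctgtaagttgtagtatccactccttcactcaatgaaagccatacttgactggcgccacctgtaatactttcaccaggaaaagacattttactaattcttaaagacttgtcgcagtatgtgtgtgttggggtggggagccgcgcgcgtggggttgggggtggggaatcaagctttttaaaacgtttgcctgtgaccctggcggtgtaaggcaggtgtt
The *Rtn4r* sequence was 77.2% G and C and the *Tnfrsf19* sequence shown 50%, against a median of 52.4% over 32851 promoter windows. The window of another *Tnfrsf19* start, at chr14:61037988-61038237 and not shown, was 59.2% G and C. The motifs ACAAAG and ACAATG, letters that Sox proteins bind, were searched on both strands, and a window can hold both. They were found in none of the 12 windows of the 7 genes with an entry, so no letters are in capitals, and in 25.2% of all windows. Most of the 12 windows were richer in G and C than the median window, and the motifs are rich in A and T. The shares were not matched for base content, so they are not compared. *Rtn4rl1*, *Omg* and *Ptprd* had no entry.

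Levels were first compared between genes in TPM, an abundance scaled for transcript length and for the library. In the control libraries *Rtn4* was the most abundant of the 10 genes at 551 ± 19.8 TPM (SD, n = 2), followed by *Ptprs* at 269 ± 59.3 TPM and *Lingo1* at 147 ± 3.32 TPM. *Rtn4rl2* at 103 ± 49.3 TPM, *Rtn4rl1* at 93.3 ± 26 TPM and *Ptprf* at 73.9 ± 21.5 TPM came next, and the replicates of neighbours in this order overlapped. *Rtn4r* stood at 33.4 ± 4.6 TPM, *Ptprd* at 22.7 ± 8.89 TPM and *Tnfrsf19* at 4.03 ± 0.0849 TPM, each apart from its neighbours. *Omg* was last at 0.185 ± 0.00707 TPM. The first 3 places and the last 2 places were held by these same genes with Sox11 and with Sox11 K91A. *Ptprd* moved from place 8 in the control libraries to place 4 with Sox11, at 76.5 ± 22.8 TPM, and to place 6 with Sox11 K91A, at 58.6 ± 13.3 TPM, although in both groups its replicates overlapped with those of *Ptprf*.

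Sox11 against control asked which of these genes move when an RGC makes more Sox11. *Ptprd* and *Tnfrsf19* rose and *Rtn4r* and *Rtn4rl1* fell, so that 4 of the 9 genes that passed the filter on low counts also passed the test. The threshold was an adjusted p under 0.05 and a fold change over 1.2 in limma-voom. Over all 15747 genes tested, 9.96% rose and 10.2% fell. Replicates of the groups did not overlap for 3 of the 9 genes on the higher side and 5 on the lower side, and over all genes the shares were 30.9% and 30.6%. These are bulk libraries, in which fewer cells of a type and less RNA per cell cannot be told apart. The fall of 3 of the 10 RGC markers and of *Slc6a9*, and the rise of *Mog*, *Pdgfra* and *Glul*, stood beside these changes. Their part in these changes was not tested. Not every marker of the glial lists rose, and the amacrine markers did not all fall. *Mbp* was at 48.5 and 37 CPM in the controls and 35.3 and 25.2 CPM with Sox11. *Rlbp1* was at 1.15 and 3.74 CPM in the controls and 0.182 and 0.694 CPM with Sox11. Of the 6 amacrine markers only *Slc6a9* passed the test with Sox11. *Gad2* was at 140 and 71.5 CPM in the controls and 52.6 and 20.6 CPM with Sox11. *Tfap2b* was at 11 and 2.41 CPM in the controls and 20.7 and 5.79 CPM with Sox11.

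**Figure D1:**
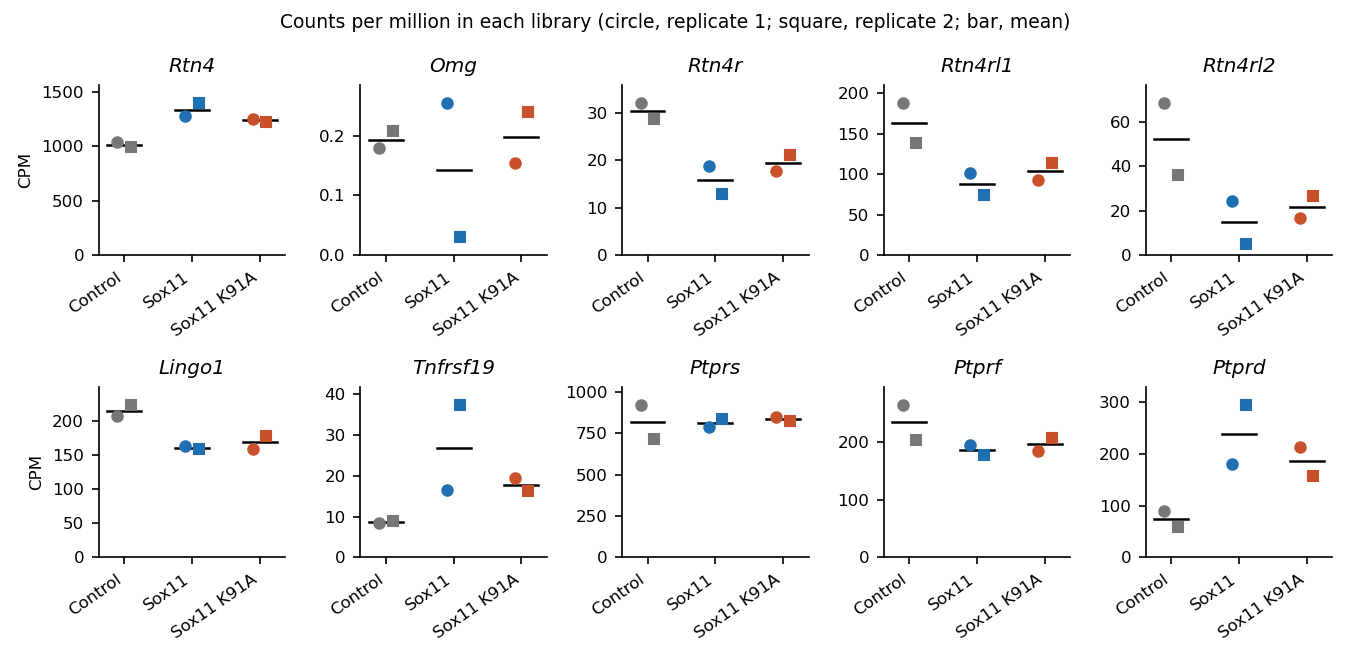
CPM (linear axes from 0) of the 10 genes in each of the 6 libraries, by group, with circles for replicate 1, squares for replicate 2 and a bar at the mean. *Ptprd* lies at 58.5 and 89.2 CPM in the controls and between 158 and 294 CPM in the other 4, while *Rtn4rl2* spreads from 5.28 to 24.3 CPM within the Sox11 group.

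Gene positions are from GENCODE M21 on GRCm38. Among the ligands, *Rtn4* (chromosome 11, 29692947 to 29744331, plus strand), which neurons make as well as myelin, was at 1036 and 990 CPM in the controls, 1275 and 1400 CPM with Sox11, and 1252 and 1227 CPM with Sox11 K91A. All 4 libraries with a Sox11 virus were above both control libraries. The log2 fold change was 0.40 (SE 0.14, limma-voom adjusted p = 0.0836) with Sox11 and 0.29 (SE 0.139, adjusted p = 0.208) with Sox11 K91A, and neither passed the test. In DESeq2 *Rtn4* passed with Sox11 (adjusted p = 0.0239). On the opposite strand *Eml6* shares 18.4% of the exon bases of *Rtn4*, and whether counting used strand is not stated. *Omg* (chromosome 11, 79500982 to 79504084, minus strand), which encodes a lipid-anchored protein of oligodendrocytes and some neurons, lies inside the gene *Nf1* on the opposite strand. It had 5 and 8 counts in the control libraries, 7 and 1 with Sox11, and 5 and 7 with Sox11 K91A, and it was too low to be tested.

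The Nogo receptor genes were lower in every library with a Sox11 virus than in both control libraries. Over all genes tested, 30.6% lay below both controls in this way with Sox11 and 30.6% with Sox11 K91A. The share for both groups together was not computed. *Rtn4r* (chromosome 16, 18127642 to 18152408, plus strand), which encodes the receptor for Nogo, OMgp and MAG, was at 32.1 and 28.7 CPM in the controls, 18.7 and 12.9 CPM with Sox11, and 17.8 and 21.2 CPM with Sox11 K91A. It fell by 0.98 on the log2 scale with Sox11 (SE 0.216, limma-voom adjusted p = 0.0266), a 1.97-fold decrease. With Sox11 K91A the log2 fold change was -0.64 (SE 0.207, adjusted p = 0.0904). *Rtn4rl1* (chromosome 11, 75193783 to 75267769, plus strand), which encodes a relative that binds proteoglycans together with the Nogo receptor, was at 188 and 138 CPM in the controls, 101 and 74.8 CPM with Sox11, and 92.7 and 114 CPM with Sox11 K91A. It fell by 0.89 with Sox11 (SE 0.223, adjusted p = 0.0356), a 1.85-fold decrease, and stood at -0.65 (SE 0.223, adjusted p = 0.103) with Sox11 K91A. Both genes have a single transcript in the tables, so these values do not mix isoforms.

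*Rtn4rl2* (chromosome 2, 84871924 to 84886710, minus strand), which encodes a receptor for MAG, had the widest spread of the 3. Its values were 68.6 and 35.9 CPM in the controls, 24.3 and 5.28 CPM with Sox11, and 16.9 and 26.8 CPM with Sox11 K91A. The groups did not overlap with the controls. The log2 fold change was -2.19 with Sox11 (SE 0.643, 95% confidence interval -3.71 to -0.66), and its adjusted p of 0.0542 in limma-voom missed the threshold. It ranged from -3.24 (adjusted p = 0.024) without Sox11 replicate 1 to -1.02 (adjusted p = 0.284) without Sox11 replicate 2. With Sox11 K91A it was -1.22 (SE 0.566, adjusted p = 0.197). The lowest value, in Sox11 replicate 2, rested on 175 counts against 1918 in control replicate 1. With control replicate 2 and Sox11 replicate 2 left out, the log2 fold changes were -1.49 with Sox11 and -1.70 with Sox11 K91A. Each group then had a single library except Sox11 K91A.

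Summed over the 3 genes, the Nogo receptor family stood at 286 and 173 TPM in the control libraries, 135 and 71.5 TPM with Sox11, and 111 and 145 TPM with Sox11 K91A. *Rtn4rl2* gave 48.1% and 39.2% of this sum in the control libraries, 38.7% and 14.9% with Sox11, and 32.1% and 37.5% with Sox11 K91A. The share was thus below both controls in all 4 libraries with a Sox11 virus. The 38.7% and 37.5% lay close to the 39.2% of control replicate 2, and the controls differed more from each other. The ratio of *Rtn4* to the receptor sum, both in TPM, was 1.88 and 3.27 in the control libraries, 4.84 and 10 with Sox11, and 5.66 and 4.24 with Sox11 K91A. The groups did not overlap with the controls in this ratio.

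**Figure D2:**
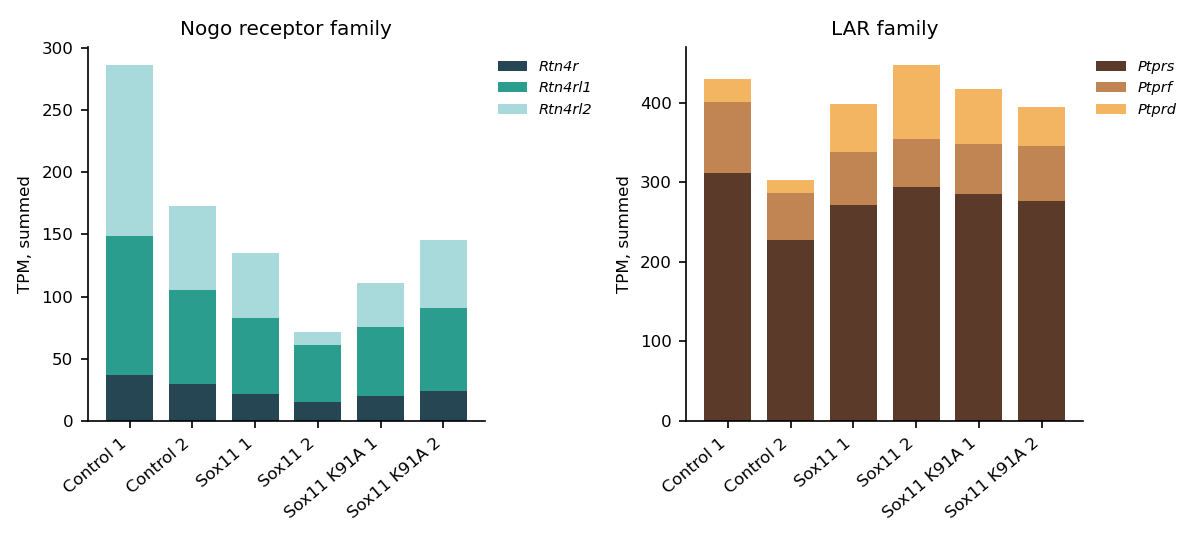
Summed TPM of the Nogo receptor genes (left) and of the LAR family phosphatase genes (right) in each library, stacked by gene. The receptor sum is highest in the control libraries (286 and 173 TPM) and lowest in Sox11 replicate 2 (71.5 TPM), and the *Ptprd* part of the phosphatase sum is larger in the 4 libraries with a Sox11 virus.

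Of the co-receptor genes *Tnfrsf19* rose with Sox11, and *Lingo1* passed the test in neither comparison. *Lingo1* (chromosome 9, 56618475 to 56796468, minus strand), which encodes a transmembrane partner of the Nogo receptor, was at 207 and 223 CPM in the controls, 163 and 158 CPM with Sox11, and 159 and 178 CPM with Sox11 K91A. The log2 fold changes of -0.42 (SE 0.136, limma-voom adjusted p = 0.0686) and -0.36 (SE 0.136, adjusted p = 0.134) did not pass the test, although *Lingo1* passed with Sox11 in DESeq2 (adjusted p = 0.0172). *Tnfrsf19* (chromosome 14, 60963875 to 61046490, minus strand), which encodes the death domain receptor Troy, was at 8.37 and 8.93 CPM in the controls, 16.5 and 37.4 CPM with Sox11, and 19.5 and 16.2 CPM with Sox11 K91A. All 4 libraries with a Sox11 virus lay above both controls, and Sox11 replicate 2 was highest. *Tnfrsf19* rose by 1.54 on the log2 scale with Sox11 (SE 0.42, adjusted p = 0.0441), a 2.91-fold increase, and stood at 1.04 (SE 0.434, adjusted p = 0.161) with Sox11 K91A. The ratio of *Tnfrsf19* to *Lingo1*, both in TPM, was 0.0265 and 0.0282 in the control libraries and between 0.0572 and 0.15 in the other 4.

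Of the LAR family phosphatases *Ptprd* changed, and the test did not call *Ptprs* or *Ptprf*. *Ptprd* (chromosome 4, 75941238 to 78211961, minus strand) was at 89.2 and 58.5 CPM in the controls, 181 and 294 CPM with Sox11, and 214 and 158 CPM with Sox11 K91A. No library with a Sox11 virus reached down to the control values. *Ptprd* rose by 1.67 on the log2 scale with Sox11 (SE 0.302, limma-voom adjusted p = 0.0173), a 3.19-fold increase. It also rose with Sox11 K91A, by 1.35 (SE 0.301, adjusted p = 0.0392) or 2.54-fold. *Ptprs* (chromosome 17, 56412426 to 56476483, minus strand), which encodes the phosphatase best known as a receptor of proteoglycans, was at 922 and 717 CPM in the controls, 790 and 836 CPM with Sox11, and 848 and 823 CPM with Sox11 K91A. Both groups lay between the control values, and the 95% confidence intervals of the log2 fold change ran from -0.40 to 0.39 with Sox11 and from -0.36 to 0.43 with Sox11 K91A. *Ptprf* (chromosome 4, 118208213 to 118291405, minus strand) was at 263 and 203 CPM in the controls, 194 and 176 CPM with Sox11, and 184 and 206 CPM with Sox11 K91A, at log2 fold changes of -0.33 (SE 0.17, adjusted p = 0.209) and -0.25 (SE 0.171, adjusted p = 0.372). The family as a whole summed to 429 and 303 TPM in the control libraries and to between 395 and 447 TPM in the other 4. The share of *Ptprd* in that sum was 6.75% and 5.42% in the control libraries, 15.2% and 20.7% with Sox11, and 16.3% and 12.5% with Sox11 K91A.

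Sox11 K91A against control asked the same of the form that cannot take SUMO at this lysine. Of the 9 genes tested only *Ptprd* passed, upward, beside 5.81% of all genes that rose and 4.81% that fell. Replicates did not overlap with the controls for 3 genes on the higher side and 4 on the lower side, where the shares over all genes were 31.2% and 30.6%. The comparisons of Sox11 and of Sox11 K91A share the control libraries, so their values stand side by side above and are not counted as independent.

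With a library left out, the counts of calls moved over all genes and not for these genes alone. Without Sox11 replicate 2, 0 of 16206 genes were called with Sox11 (3347 at an unadjusted p under 0.05), these 9 included. The limma-voom log2 fold changes were then 1.33 for *Ptprd*, 0.93 for *Tnfrsf19*, -0.68 for *Rtn4r*, -0.67 for *Rtn4rl1* and -1.02 for *Rtn4rl2*, with the signs of the fit of all libraries. That library had the most *Sox11* and the lowest sum of RGC markers. Without Sox11 replicate 1 the log2 fold changes of these 5 genes, in the same order, were 2.01, 2.09, -1.25, -1.12 and -3.24. Without control replicate 2, where 1790 of 16205 genes were called with Sox11 and 0 with Sox11 K91A, only *Rtn4rl1* of these genes was called, and *Ptprd* stood at 1.37 (adjusted p = 0.0548) with Sox11 and 1.04 with Sox11 K91A. Without control replicate 1 the log2 fold changes with Sox11 were 1.979 for *Ptprd*, 1.515 for *Tnfrsf19*, -0.905 for *Rtn4r*, -0.668 for *Rtn4rl1* and -1.745 for *Rtn4rl2*. Without Sox11 K91A replicate 1, and likewise without its replicate 2, *Ptprd* alone of these genes was called with Sox11. Fewer of all genes were called there too than with all libraries. For Sox11 K91A against control none of these genes was called without its replicate 1, where 19 genes in all were called, or without its replicate 2, where 319 were.

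With both control replicate 2 and Sox11 replicate 2 left out, the control and Sox11 groups had 1 library each. The spread in that fit came only from the 2 Sox11 K91A libraries, so effect sizes alone are given here. With Sox11 the log2 fold changes were 1.02 for *Ptprd*, 0.98 for *Tnfrsf19*, -0.77 for *Rtn4r*, -0.89 for *Rtn4rl1*, -1.49 for *Rtn4rl2* and -0.44 for *Ptprf*. With Sox11 K91A they were 1.05, 1.09, -0.72, -0.87, -1.70 and -0.43, in the same order.

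**Figure D3:**
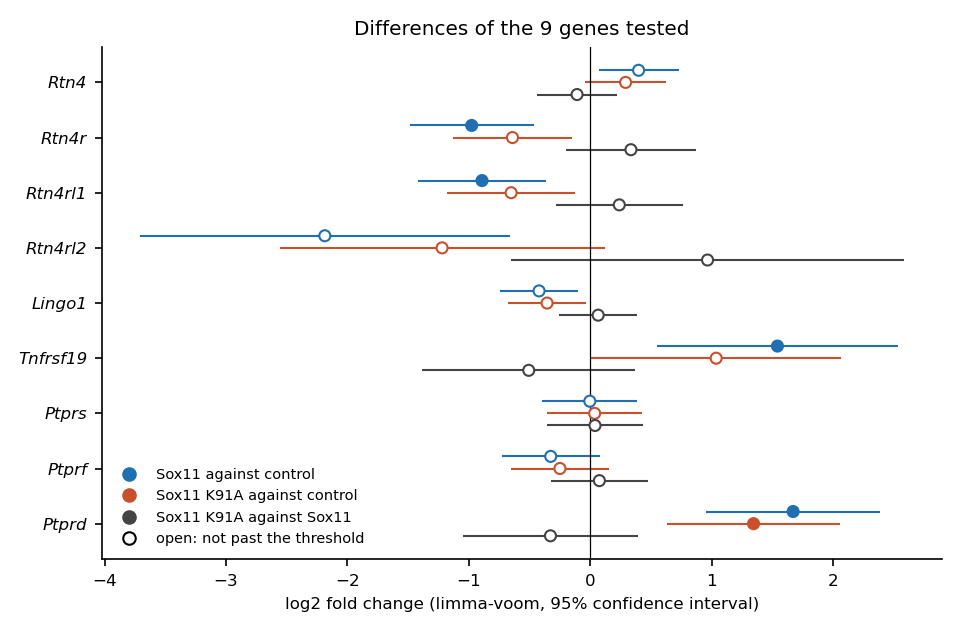
Log2 fold change of the 9 genes tested (limma-voom, all 6 libraries in 1 fit) with its 95% confidence interval, for each virus against control and for the mutant against Sox11, with filled circles past the threshold. *Ptprd* is filled in both comparisons with the control, *Tnfrsf19*, *Rtn4r* and *Rtn4rl1* with Sox11, and no gene between Sox11 K91A and Sox11.

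Sox11 K91A against Sox11 asked whether the mutation changed the response of these genes. None of the 9 genes passed the test, and neither did any other gene in limma-voom (0% of 15747), with 108 genes at an unadjusted p under 0.05. The edgeR test called 0 genes and DESeq2 called 2, neither of them among these 10. The log2 difference of *Ptprd* was -0.33, with a 95% confidence interval from -1.05 to 0.40, and that of *Tnfrsf19* was -0.51, from -1.38 to 0.37. For *Rtn4r* the difference was 0.34, from -0.20 to 0.88, and for *Rtn4rl1* 0.24, from -0.28 to 0.76. The interval of *Rtn4rl2* was the widest, from -0.65 to 2.58 around 0.97. Those of *Rtn4*, *Lingo1*, *Ptprs* and *Ptprf* lay within -0.44 and 0.48. Replicates did not overlap for 1 of the 9 genes, *Rtn4*, which was lower with Sox11 K91A, against 26.6% of all genes in either direction.

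Among the 4 libraries with a Sox11 virus, *Sox11* itself ranked from 7026 CPM in Sox11 K91A replicate 2 through 9178 CPM in Sox11 replicate 1 and 11971 CPM in Sox11 K91A replicate 1 to 14591 CPM in Sox11 replicate 2. *Ptprd* at 158, 181, 214 and 294 CPM and *Tnfrsf19* at 16.2, 16.5, 19.5 and 37.4 CPM followed the same order. *Rtn4r*, *Rtn4rl1*, *Rtn4rl2*, *Lingo1* and *Ptprf* followed the inverse order. So did the sum of the RGC markers, at 8378, 7967, 6762 and 5334 CPM. An order by *Sox11* and an order by these markers therefore cannot be told apart here. Over all genes tested, 12.4% had the same order and 13.9% the inverse order. The order crosses the groups, and no test was made on it, since 4 libraries that also differ in RGC markers give none.

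The tables also give each gene a length, which is the mean of its transcripts weighted by their estimated abundance, so it moves when the mixture of isoforms moves. *Rtn4* encodes long and short forms of Nogo, and in the GENCODE M21 annotation its coding transcripts range from 1272 to 4618 bases, the longest with 1162 codons for the long form Nogo-A. The mean length of *Rtn4* was 4006 and 3367 bases in the control libraries, 4108 and 4151 bases with Sox11, and 4127 and 4083 bases with Sox11 K91A. Control replicate 2 was thus 17.8% below the mean of the other 5 libraries, and in the same library 6.42% of the 4021 well counted genes with several transcripts had shifted as far. The mean rose by 12% from control to Sox11 and by 11.4% from control to Sox11 K91A, and by 3.07% and 2.46% without control replicate 2. The lengths of *Lingo1*, *Ptprs*, *Ptprf*, *Ptprd* and *Rtn4rl2* stayed within 5% of the control mean in both group means. *Tnfrsf19* was at 4368 and 4135 bases in the control libraries and between 4401 and 4503 bases in the other 4. These lengths exceed both of its transcripts in GENCODE M21, at 4051 and 3958 bases, so the authors' annotation differs there and its isoforms cannot be read from them.

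**Figure D4:**
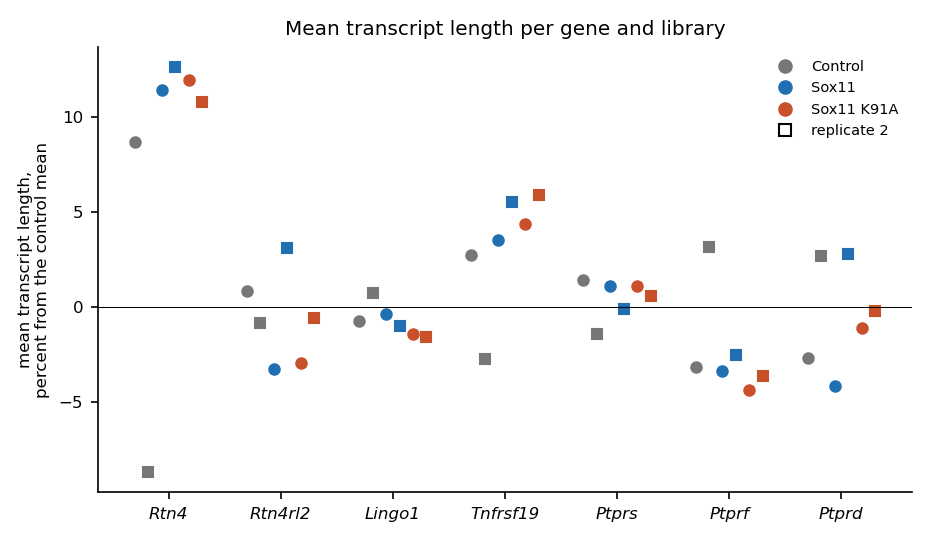
Mean transcript length of the 7 genes with more than 1 transcript length, in each library, as percent from the mean of the control libraries, with circles for replicate 1 and squares for replicate 2. Control replicate 2 lies below all other libraries for *Rtn4* (3367 bases) and *Tnfrsf19* (4135 bases).

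The genes around these receptors were described from 3 lists. Over all genes tested, 9.96% rose and 10.2% fell with Sox11, and 5.81% rose and 4.81% fell with Sox11 K91A. The counts of all 3 lists stand beside these shares and are not read as a response of a pathway. Of 15 other ligands, co-receptors and reticulons tested, 3 rose and 4 fell with Sox11 and 2 rose and 1 fell with Sox11 K91A, with median log2 fold changes of -0.36 and -0.25 beside 0.01 and 0.02 over all genes. *Ngfr*, which encodes p75, the other death domain partner of the Nogo receptor, was at 17.1 and 13.9 CPM in the controls, 113 and 205 CPM with Sox11, and 163 and 105 CPM with Sox11 K91A. It rose by 3.32 on the log2 scale with Sox11 (SE 0.364, limma-voom adjusted p = 0.011) and by 3.10 with Sox11 K91A (SE 0.364, adjusted p = 0.014). *Lingo3*, a relative of *Lingo1*, fell by 1.77 (adjusted p = 0.0148) and by 1.79 (adjusted p = 0.0213). *Cntnap1*, which encodes a paranodal partner of contactin, fell by 2.70 with Sox11 (adjusted p = 0.0296), as did *Olfm1*, which encodes a secreted protein that binds the Nogo receptor, by 0.63 (adjusted p = 0.0435). *Rtn1*, a neuronal reticulon, rose by 0.56 with Sox11 (adjusted p = 0.0428). *Rtn2* and *Rtn3* did not pass, at -0.36 (adjusted p = 0.0987) and 0.22 (adjusted p = 0.345). *Mag*, the myelin ligand of the Nogo receptors, had between 0 and 14 counts per library.

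Of 22 genes of RhoA, ROCK and their effectors, 3 rose and 4 fell with Sox11 and 2 fell with Sox11 K91A, and the medians were 0.09 and 0.06. *Rhoa* was at 225 and 270 CPM in the controls, 184 and 151 CPM with Sox11, and 166 and 187 CPM with Sox11 K91A, at log2 fold changes of -0.56 (limma-voom adjusted p = 0.0568) and -0.48 (adjusted p = 0.109). *Rock1* at 0.58 (adjusted p = 0.0606) and *Rock2* at -0.20 (adjusted p = 0.386) did not pass with Sox11. *Rhoc*, a relative of *Rhoa*, fell by 3.01 with Sox11 (adjusted p = 0.0142) and by 2.36 with Sox11 K91A (adjusted p = 0.0303). *Prkca*, a protein kinase C, fell by 1.08 (adjusted p = 0.0202) and 0.84 (adjusted p = 0.0488). The exchange factor genes *Arhgef12* and *Kalrn* rose with Sox11, by 1.02 (adjusted p = 0.0326) and 1.91 (adjusted p = 0.0442).

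Of 36 partners of the LAR family, that is proteoglycans, synaptic ligands and liprins, 5 rose and 5 fell with Sox11 and 5 rose and 2 fell with Sox11 K91A, with medians of 0.01 and 0.13. *Vcan*, which encodes the proteoglycan versican, was at 1.54 and 2.31 CPM in the controls, 130 and 295 CPM with Sox11, and 217 and 110 CPM with Sox11 K91A. It rose by 6.65 (SE 0.842, limma-voom adjusted p = 0.0115) and 6.31 (SE 0.842, adjusted p = 0.0164). *Ncan*, which encodes neurocan, rose by 1.91 (adjusted p = 0.011) and 1.80 (adjusted p = 0.0132), and *Gpc2*, a heparan sulfate proteoglycan of growing neurons, by 2.99 (adjusted p = 0.00753) and 2.80 (adjusted p = 0.00919). The liprin gene *Ppfia4* fell by 1.71 with Sox11 (adjusted p = 0.0323).

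**Figure D5:**
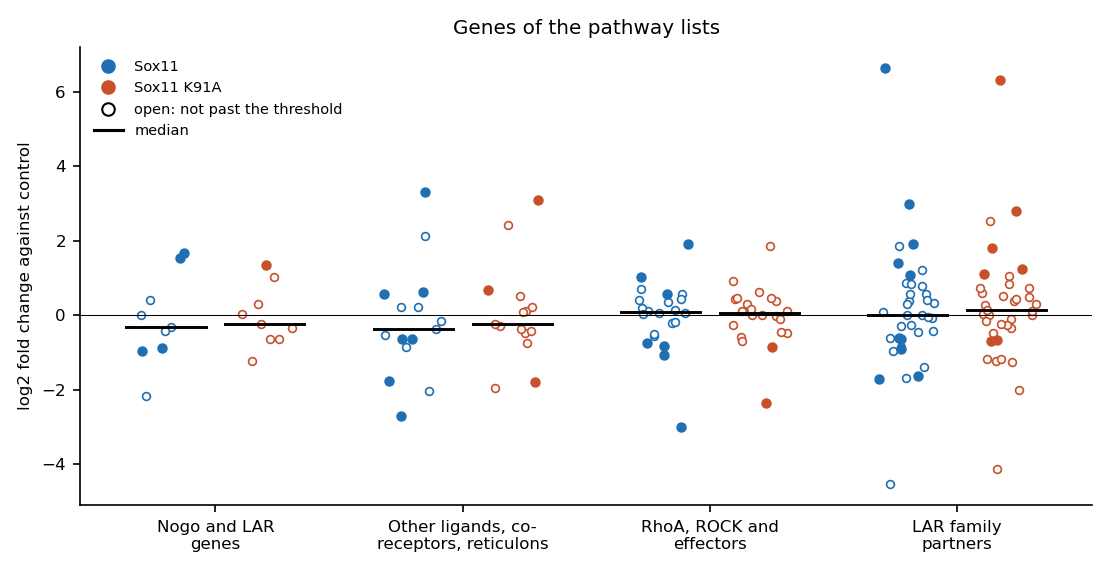
Log2 fold change against control of each gene tested in the 10 chosen genes and the 3 lists, for Sox11 and Sox11 K91A, with filled circles past the threshold and bars at the median. *Vcan* lies highest in the list of LAR family partners (6.65 and 6.31) and *Ngfr* in the list of co-receptors (3.32 and 3.10).

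Of the 4 genes among the 10 that were called with Sox11, *Ptprd* had the largest log2 fold change with all libraries in the fit. The genes whose log2 CPM over the 6 libraries was most like it were *Robo1*, *Mapk6* and *Haus3*, each at a Pearson correlation of 0.999 among 13378 genes, of which 2134 reached 0.9. *Robo1*, which encodes an axon guidance receptor, was at 17.7 and 8.8 CPM in the controls, 49.8 and 99.4 CPM with Sox11, and 64.1 and 38 CPM with Sox11 K91A. The points share libraries, groups and depth, and 6 points in 3 groups bring many genes close to 1.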

How the data were processed

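RGC cultures with a control, Sox11 or Sox11 K91A virus gave 2 libraries each. STAR was used for alignment to mm10. The authors deposited, for every library, RSEM expected counts without normalization, TPM values and gene lengths. Versions, annotation and use of strand were not given in the sources used here. Symbols, coordinates and transcripts came from GENCODE M21 on GRCm38, and identifiers were matched without their version.

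Expected counts were rounded, filtered with filterByExpr of edgeR (version 4.0.16) and scaled with TMM, and 15747 genes entered limma-voom (limma 3.58.1 under R 4.3.3), where 1 fit without covariates held all 6 libraries. The p-values are two-sided and were adjusted by Benjamini-Hochberg across the genes tested, and confidence intervals are not adjusted. A call needed an FDR below 0.05 with a fold change over 1.2 either way. CPM values use TMM-scaled library sizes, and errors are SD over 2 replicates. The genes and lists were chosen with earlier results of these data known, so no count over them is independent evidence. Named genes are the 10 genes, *Sox11*, 8 pathway genes of known role, the 4 largest changes past the threshold in each list and the 3 genes nearest to *Ptprd*. Alternatives were other tests (edgeR, DESeq2 version 1.42.0), units, scalings, filters, blocks and left-out libraries. Blocking or leaving out the 2 libraries with few *Xist* counts was chosen after seeing the data. Python 3.11.15 with pandas 2.3.3 and matplotlib 3.10.9 drew the plots.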

Additional observations from a re-analysis of the deposited data

How the results depend on the processing

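The counts of these genes moved beside those of all genes, which stand in brackets. With Sox11, 4 of the 9 genes were called (3171), against 6 with DESeq2 (4345), *Rtn4* and *Lingo1* among them, 1 with sample quality weights (979), 1 on log2(TPM + 1) (2244), 1 on log2(TPM + 0.1) (2107), 1 in a fit of only the 2 groups compared (1598), and between 0 and 5 with a library left out (0 to 3753). With Sox11 K91A, 1 was called (1672), against 3 with DESeq2 (3144), 0 on log2(TPM + 1) (936), 0 on log2(TPM + 0.1) (896), 2 in a fit of only the 2 groups compared (1732), 5 with a block for the 2 libraries with few *Xist* counts (2894), 6 without both of them (4108), and between 0 and 2 with a library left out (0 to 2563). The cause was not tested. Between Sox11 K91A and Sox11, 0 were called in every setting. *Ptprd* was called in 18 of 20 alternatives with Sox11 and in 15 of 20 with Sox11 K91A, *Tnfrsf19* in 10 and 6, *Rtn4r* in 11 and 2, *Rtn4rl1* in 12 and 3, and *Rtn4rl2* in 5 and 2, and none of these 5 reversed against control. These shares include settings in which few or no genes at all were called. Under a replicate block, 5 genes were called with Sox11 (2679) and 1 with Sox11 K91A (1402), and *Rtn4rl2* passed with Sox11 at -2.04 (limma-voom adjusted p = 0.041). Same-numbered deviations correlated at 0.259 for the control and Sox11 groups, whose replicates 2 shared few *Xist* counts and low *Gad1*. With the Sox11 K91A group the correlations were -0.045 for the control group and -0.282 for the Sox11 group. Whether the numbers pair any libraries was not tested. In the mutant comparison the replicate block called 0 genes, and so did a block with the Sox11 K91A numbers exchanged. These 2 blocks had 81 and 208 genes at an unadjusted p under 0.05 in limma-voom. Counts of 0 under both blocks cannot decide the pairing.

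No value that changed sign had passed the test. *Ptprs* with Sox11 was 0.084 on log2(TPM + 1), 0.085 on log2(TPM + 0.1) and between -0.18 and 0.18 with a library left out. With Sox11 K91A *Ptprs* was -0.031 with the *Xist* block, -0.138 without both libraries, and between -0.14 and 0.22 with a library left out. Between Sox11 K91A and Sox11, with a library left out, *Rtn4rl2* ranged from -0.20 to 2.01, *Tnfrsf19* from -1.06 to 0.11, *Ptprd* from -0.67 to 0.023, *Lingo1* from -0.014 to 0.15 and *Ptprf* from -0.002 to 0.16. Without both libraries these differences were -0.20 for *Rtn4rl2*, 0.11 for *Tnfrsf19* and 0.023 for *Ptprd*. *Ptprs* was -0.006 on both TPM scales and -0.03 with the *Xist* block, and *Ptprf* was -0.051 with that block. Where leaving out a library left a group with 1 library, that library was assumed to vary like the other groups.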
